A study of Homo sapiens with 4 samples.

Results

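The loci of 5 cell surface genes, CD44, ICAM1, VCAM1, NT5E and CD274, were examined for binding of c-Jun, a subunit of the transcription factor AP-1, in BT549 cells with and without the inflammatory cytokine TNFalpha. BT549 is an established human triple-negative breast cancer line. A peak belonged to a locus if its centre lay in a fixed hg19 window around the gene: chr11:35050000-35350000 for CD44, chr19:10330000-10430000 for ICAM1, chr1:101100000-101300000 for VCAM1, chr6:86050000-86300000 for NT5E and chr9:5380000-5560000 for CD274. Of the 23721 peaks in 4 deposited lists, 17 fell in these windows, and they formed 11 sites once overlapping peaks were joined (of 12091 over the genome). The windows held 11 peaks of the library with TNFalpha and 6 of the library without it. In these counts a site called against both an IgG and an input control enters once per list. Over the genome the lists against IgG and input held 4439 and 8040 peaks with TNFalpha, and 3323 and 7919 without it. The counts in the windows are small, and their difference was not tested.

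The cells were serum-starved overnight before treatment, per the series text, and chromatin was fixed with 1% formaldehyde for 10 minutes. One c-Jun ChIP-seq library came from cells given TNFalpha and 1 from cells that were not. The treatment lasted 6 hours by the sample labels and 3 hours by the series text. Peaks of each library were called once against normal rabbit IgG and once against input chromatin, and both of these controls came from TNFalpha-treated cells, so the untreated c-Jun library had no control from untreated cells. Each condition had 1 library. Differences between conditions therefore describe these 2 libraries, have no replicate check and were not tested. The depth of both libraries is unknown, because only peak lists were used, and a missing peak means only that none was called. The cell identity was taken from the labels, since peak lists hold no marker levels.

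AP-1 is a dimer of Jun and Fos family proteins that binds short palindromic DNA elements, often in enhancers away from gene starts, and TNFalpha activates it through kinases that phosphorylate c-Jun. The same cytokine activates NF-kB, which is known to induce ICAM1 and VCAM1. CD44 is a receptor for hyaluronan on mesenchymal and stem-like tumour cells. ICAM1 and VCAM1 are adhesion molecules that bind integrins of leukocytes. NT5E encodes CD73, a surface enzyme that makes adenosine from extracellular AMP, and CD274 encodes PD-L1, the ligand of the T cell inhibitory receptor PD-1.

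The sequences upstream of ICAM1, VCAM1 and CD274 are shown because TNFalpha is known to act on these genes, and because the windows of ICAM1 and CD274 held peaks only with TNFalpha while that of VCAM1 held none. Each is the 250 bases before the gene start on the plus strand of GRCh38.p14, from RefSeq: chr19:10270870-10271119 for ICAM1, chr1:100719492-100719741 for VCAM1 and chr9:5450292-5450541 for CD274. Capitals mark matches to GGNNNTTCC on either strand, a loose form of the NF-kB element chosen after the sequences were seen.
ICAM1: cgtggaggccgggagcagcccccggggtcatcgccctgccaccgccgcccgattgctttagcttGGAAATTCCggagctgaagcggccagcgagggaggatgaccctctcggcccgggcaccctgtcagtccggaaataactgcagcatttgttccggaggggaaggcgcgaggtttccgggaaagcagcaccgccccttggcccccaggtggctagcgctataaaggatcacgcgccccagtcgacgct
VCAM1: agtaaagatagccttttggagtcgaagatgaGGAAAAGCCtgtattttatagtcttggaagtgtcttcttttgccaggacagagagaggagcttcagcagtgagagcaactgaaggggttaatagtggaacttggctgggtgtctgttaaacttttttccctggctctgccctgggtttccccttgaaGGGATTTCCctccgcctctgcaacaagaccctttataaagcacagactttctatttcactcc
CD274: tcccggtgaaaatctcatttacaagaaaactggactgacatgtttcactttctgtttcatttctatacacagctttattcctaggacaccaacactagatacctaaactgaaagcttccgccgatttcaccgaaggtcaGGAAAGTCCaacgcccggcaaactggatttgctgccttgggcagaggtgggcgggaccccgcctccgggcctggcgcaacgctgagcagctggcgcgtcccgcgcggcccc

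All 5 genes had an entry in the RefSeq promoter table, which spans 250 bases before to 50 bases after the start. The AP-1 letters TGANTCA were in 0 of these 5 promoters, and in 7.71% of all 35116 promoters of the table. A stricter form of the NF-kB element than that in capitals was also in 0 of the 5, and in 0.558% of all. The letters GGNNNTTCC began 186 bases before the start of ICAM1, 219 and 62 bases before that of VCAM1 and 111 bases before that of CD274. NT5E had 1 match and CD44 had 0, and 20.1% of all promoters had at least 1. Because these letters were chosen after sequences of these genes were seen, that share cannot serve as a test of enrichment. These matches are a description of letters and do not show binding. The peaks are on hg19, of which no genome or annotation was used, so peaks were not placed relative to these promoters and the sequence under them was not read.

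c-Jun peaks at the 5 loci were few and mostly present in 1 library. Of the 11 sites, 7 had peaks only with TNFalpha, 3 only without it and 1 in both libraries. Over all 12091 joined sites, 33.5% had peaks only with TNFalpha, 31.8% only without it and 34.7% in both. Of the 11 sites, 7 were in 1 list only, 3 in both lists of 1 library and 1 in all 4 lists. A peak called against IgG is termed a both-control peak if it also overlapped a peak called against input in its own library. The loci held 3 of the 4159 both-control peaks with TNFalpha and 2 of the 3086 without it, and all 5 had the same coordinates in both lists of their library. Of the 3 with TNFalpha, 2 overlapped no peak in either list without TNFalpha (background over all both-control peaks 35.9%). Of the 2 without TNFalpha, 1 overlapped no peak in either list with TNFalpha (background 20.1%). In the IgG-controlled lists alone, 4 of 5 peaks with TNFalpha (background 49.7%) and 1 of 2 without it (background 32.6%) had no counterpart in the other library's list. In the input-controlled lists alone these numbers were 5 of 6 (background 49.1%) and 3 of 4 (background 47.8%). Counts this small cannot be set apart from these backgrounds.

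**Figure D1:**
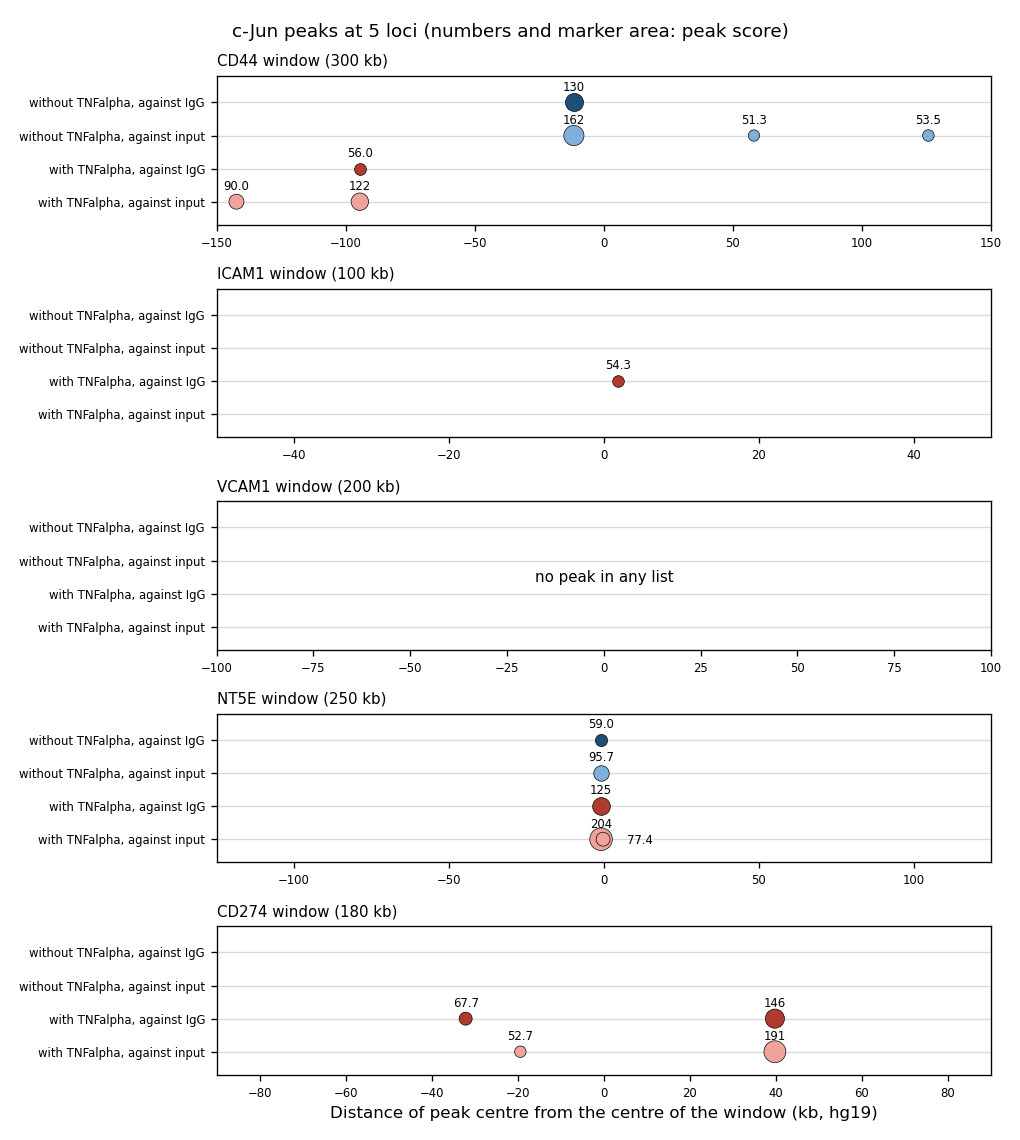
Each panel is 1 locus, with the distance of each peak centre from the centre of the window in kb on the horizontal axis and the 4 peak lists as rows. Points are called peaks, with the authors' score printed beside each and as the marker area. CD44 has different sites in the 2 libraries, ICAM1 and CD274 have peaks only with TNFalpha, NT5E has a site in all 4 lists and VCAM1 has none.

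Scores are those of the authors' peak caller, on a scale not given in the sources used here. No list held a score under 50, and scores were compared only inside a list. Ranks are given as the percent from the top of a list, where a small value is a strong peak. The lists held 3323 and 7919 peaks without TNFalpha and 4439 and 8040 with it, against IgG and against input, so ranks from different lists are set side by side and show no change by themselves.

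CD44 had c-Jun peaks in both libraries, but at sites that did not coincide. Of its 5 sites, the one that stood nearest the top of its lists, chr11:35188232-35188576, was called without TNFalpha in both lists and with TNFalpha in neither. Its score was 130.0 against IgG (rank 630 of 3323, 19.0% from the top) and 162 against input (rank 1266 of 7919, 16.0%). Among the 620 both-control peaks found only without TNFalpha it ranked 14, and their median score was 64.2. Of the 308 both-control peaks in its score decile, the third highest, 26 were found only without TNFalpha (8.44%, 95% Wilson interval 5.83 to 12.1%, counting error only). Absence from the library with TNFalpha was thus infrequent among peaks of like IgG score. The nearest peak with TNFalpha in either list lay 82.6 kb away. This distance was ordinary, since 42.8% of both-control peaks found only without TNFalpha with a measurable distance lay at least as far.

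The peak 82.6 kb away was the main CD44 site with TNFalpha, chr11:35105278-35105607, called in both lists with TNFalpha and in neither without it. Its score was 56.0 against IgG (rank 3931 of 4439, 88.6% from the top) and 122 against input (rank 2927 of 8040, 36.4%), so it stood low in the first list and in the upper part of the second. Of the 415 both-control peaks with TNFalpha in its score decile, the lowest, 234 were found only with TNFalpha (56.4%, 51.6 to 61.1%). Absence from the other library was therefore usual at this IgG score. The decile rests on the IgG score alone, and no such share was taken at the site's rank against input. It ranked 1280 of the 1493 both-control peaks found only with TNFalpha.

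The other 3 CD44 sites were called against input alone. With TNFalpha, chr11:35057545-35057787, which lay 7.54 kb inside the start of the window, had a score of 90.0 (53.1% from the top). Without TNFalpha, chr11:35325662-35325849 had a score of 53.5 (86.3% from the top), and chr11:35258090-35258246, named after its values were seen, had a score of 51.3 (93.5%). None of the 3 overlapped a peak of the other library. Over the whole input-controlled lists, 48.3% of peaks with TNFalpha and 61.0% without it were not called against IgG, and 48.1% and 47.1% had no peak in either list of the other library. The 5 CD44 sites spread over 268 kb, with gaps of 47.5 to 82.6 kb between neighbours. A further peak lay 8.71 kb beyond the end of the window at chr11:35358709-35359114. It was called in both lists with TNFalpha (scores 108.5 and 223.7, 34.1% and 14.3% from the top), and it overlapped a peak without TNFalpha that was called against input alone (score 58, 73.4% from the top).

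NT5E carried the one site of the 5 loci that was called in all 4 lists. At chr6:86173865-86174292 the peak was 314 bp wide without TNFalpha and 428 bp wide with it, and the narrower interval lay inside the wider one. Without TNFalpha its score was 59.0 against IgG (rank 2611 of 3323, 78.6% from the top) and 95.7 against input (rank 2918 of 7919, 36.8%). With TNFalpha its score was 125.1 against IgG (rank 1186 of 4439, 26.7%) and 204 against input (rank 1366 of 8040, 17.0%). The site stood nearer the top of the list with TNFalpha under both controls.

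To rank the NT5E site over the same peaks in both libraries, both-control peaks that overlapped 1 to 1 between the libraries were taken, which gave 2022 pairs. Among these the NT5E site ranked 1777 by its IgG score without TNFalpha (87.9% from the top) and 851 with TNFalpha (42.1%), a difference of 45.8 percentage points. A difference at least as large in the same direction was found for 143 of the 2022 pairs (7.07%), and the middle 50% of pairs lay between -18.5 and 17.8 points. Sites that ranked low without TNFalpha often stood higher with it. Of the 203 pairs within 5 points of the NT5E site without TNFalpha, the median position with TNFalpha was 67.9% from the top (interquartile range 46.3 to 85.1%), and 38 (18.7%) stood at or above the NT5E site. The position of the NT5E site with TNFalpha was thus in the upper part of the range for sites of that rank, and was not extreme. Its width with TNFalpha exceeded that without by 114 bp, against a median of 40 bp over the pairs.

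**Figure D2:**
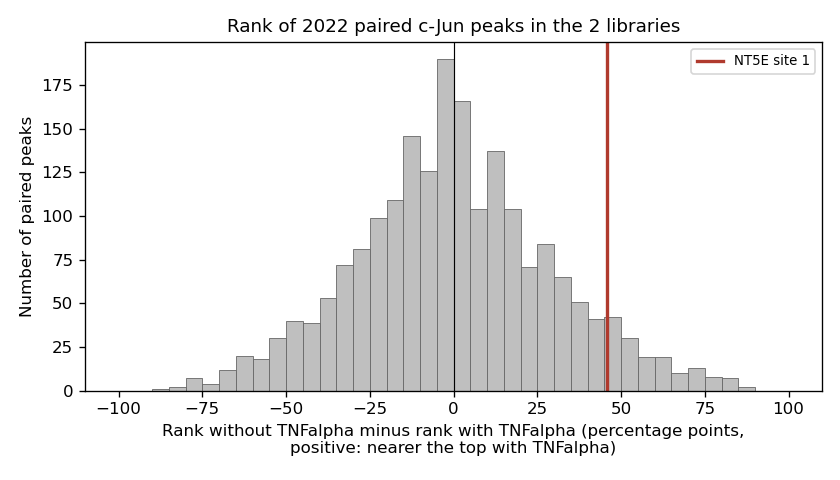
The histogram gives the number of 1 to 1 paired both-control peaks (vertical axis) by the difference in rank between the libraries in percentage points (horizontal axis, bins 5 points wide, positive where the peak stood nearer the top with TNFalpha). The red line marks the NT5E site at 45.8 points, in the right tail of the 2022 pairs.

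A second NT5E site, chr6:86174623-86174890, lay 330 bp after the first and was called with TNFalpha against input alone, with a score of 77.4 (62.4% from the top). It did not overlap a peak without TNFalpha, but the nearest such peak, that of the first site, was 404 bp away. The 250 kb window of NT5E held no other peak. The nearest peaks against IgG lay 262 kb before and 2124 kb beyond the window in both libraries.

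CD274 was the locus with the most TNFalpha-only sites called against IgG. All 3 of its sites had peaks only with TNFalpha, against 33.5% of all 12091 joined sites. Counts this small cannot be set apart from that share. No list without TNFalpha held a peak in the 180 kb window. Without TNFalpha such emptiness was common on chromosome 9, where 81.25% of bins of this length held no IgG-controlled peak and 63.8% no input-controlled peak. The strongest, chr9:5509465-5510067, was 603 bp wide and was called against both controls, with scores of 145.8 against IgG (rank 864 of 4439, 19.5% from the top) and 191 against input (rank 1533 of 8040, 19.1%). It ranked 133 of the 1493 both-control peaks found only with TNFalpha, whose median score was 74.9 and median width 394 bp. Of the 416 both-control peaks with TNFalpha in its score decile, the third highest, 99 were found only with TNFalpha (23.8%, 20.0 to 28.1%). The nearest peak without TNFalpha lay 162 kb away, and 24.0% of the peaks found only with TNFalpha with a measurable distance lay at least as far, so its isolation was ordinary for the class. In RefSeq gene order CD274 is followed by PDCD1LG2, which encodes the second ligand of PD-1, and the window does not assign the site to either gene.

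The other CD274 sites were each called against 1 control. The site chr9:5437632-5438121 was called against IgG but not against input, with a score of 67.7 (rank 3066 of 4439, 69.1% from the top). Of the 446 peaks within 5 points of it in rank, 31 were not called against input (6.95%, 4.94 to 9.70%) and 217 had no peak in either list without TNFalpha (48.7%, 44.0 to 53.3%). The site chr9:5450322-5450872 was called against input but not against IgG, with a score of 52.7 (rank 7504 of 8040, 93.3%). Over that whole list, 48.3% of peaks were not called against IgG and 48.1% had no peak in either list without TNFalpha. These sites lay 12.2 kb apart, and the second lay 58.6 kb before the strongest site. Neither met the requirement of a call against both controls, so the CD274 locus had 1 both-control site.

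ICAM1 had a single weak peak, seen only with TNFalpha and only against IgG. It was the 270 bp peak at chr19:10381703-10381972, with a score of 54.3 (rank 4093 of 4439, 92.2% from the top). Over the whole list, 280 of 4439 IgG-controlled peaks with TNFalpha were not called against input (6.31%), and the share was higher near the bottom of the list. Of the 447 peaks within 5 points of the ICAM1 peak in rank, 100 were not called against input (22.4%, 18.8 to 26.5%) and 267 had no peak in either list without TNFalpha (59.7%, 55.1 to 64.2%). Over all IgG-controlled peaks with TNFalpha the latter share was 37.9%. A call with no counterpart in the other library was thus common at this rank. The nearest peak without TNFalpha lay 231 kb away. The ICAM1 result rests on 1 peak near the lowest score of 1 list, and a difference between the conditions was not detectable from it. In RefSeq gene order ICAM1 is followed by ICAM4, and the window does not assign the peak to either gene.

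**Figure D3:**
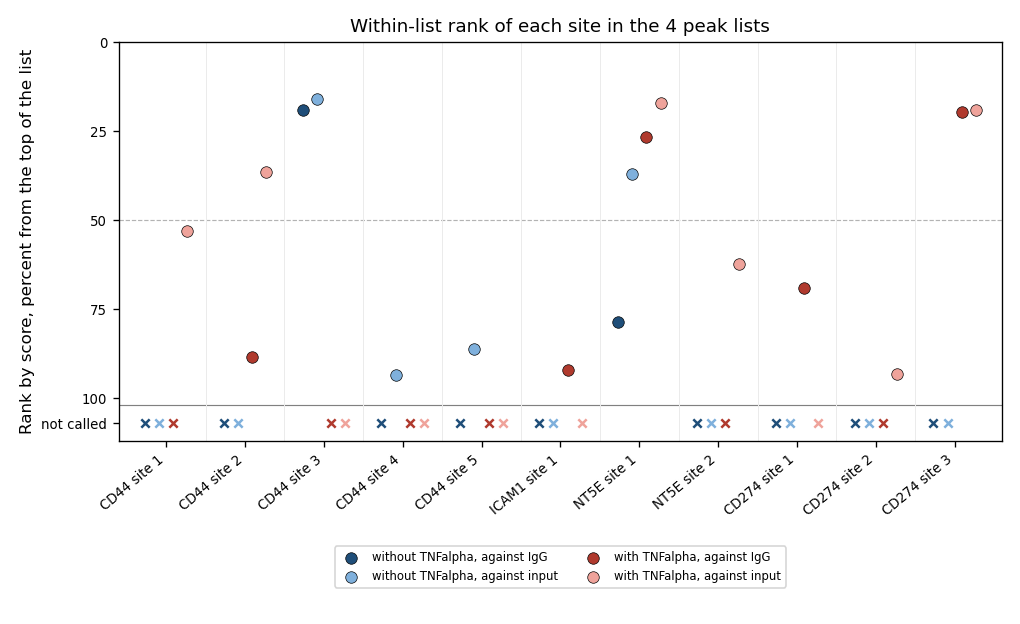
For each of the 11 sites (horizontal axis, numbered along the chromosome within each locus), the vertical axis gives the rank by score as percent from the top of the list, with strong peaks at the top, crosses mark lists without a peak, and the dashed line marks 50%. The third CD44 site without TNFalpha and the third CD274 site with TNFalpha stand within the top 20% of both their lists, and the first NT5E site has a point in all 4 lists.

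VCAM1 had 0 peaks in its 200 kb window in all 4 lists. An empty window of this size was common: of 1242 adjoining 200 kb bins on chromosome 1, 54.3% held no peak in any list, and 77.3% held no both-control peak with TNFalpha. Peaks lay just outside the window, however. A cluster began 6.68 kb before its start and held 4 both-control peaks with TNFalpha and 2 without. The strongest, chr1:101087336-101088108, had scores of 171.6 against IgG and 525 against input with TNFalpha (13.1% and 1.65% from the top). Without TNFalpha the same site was called from 101087550 to 101088046, with scores of 143.4 and 365 (14.3% and 2.55% from the top). It was therefore strong in both libraries.

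In the same cluster before the VCAM1 window, the peak nearest the window, chr1:101092822-101093324, was also in both libraries. Against IgG its score was 108.8 with TNFalpha (34.0% from the top of its list) and 67.3 without (63.9%). Against input the scores lay closer in rank, at 137.3 with TNFalpha (31.1%) and 81.5 without (45.5%). The peak chr1:101088773-101089260 was called against both controls with TNFalpha (scores 76.7 and 149.6, 57.9% and 27.7% from the top). It overlapped a peak called against input alone without TNFalpha (score 65.6, 60.9% from the top). The peak chr1:101091718-101092366 was the one of the 4 that overlapped no peak without TNFalpha, with scores of 87.8 against IgG and 223.4 against input. These peaks are outside the locus as defined and are given to show what lies at its edge. The cluster was not assigned to a gene.

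Per Mb, both-control peaks over the 5 windows together numbered 1.94 without TNFalpha and 2.91 with it. CD44 had 3.33 per Mb in both libraries, against 0.543 without and 0.759 with TNFalpha over chromosome 11, where 88.6% and 86.6% of 448 bins of 300 kb held none. NT5E had 4 per Mb in both libraries, against 1.52 and 1.93 over chromosome 6. CD274 had 0 without TNFalpha and 5.56 with it, against 1.37 and 1.88 over chromosome 9, where 79.1% of 784 bins of 180 kb held no both-control peak with TNFalpha. ICAM1 and VCAM1 had 0 in both libraries. Each nonzero density of a single locus rests on 1 peak, and those of the 5 windows together on 2 and 3. In windows of these lengths 1 peak alone gives a density above that of the chromosome.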

How the data were processed

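The series has 4 ChIP-seq libraries, and the deposited peak lists of its 2 c-Jun libraries were used. The submitters' processing notes name CASAVA 1.8, Bowtie 0.12.9 and the build hg19. Peaks are named after the caller MACS in the files, and the sources used here give neither its version nor its threshold. The deposited score of each peak is the authors' own, and it served to describe peaks and to rank them within 1 list. Starts were raised by 1 from the BED convention. Overlap meant at least 1 bp. The overlap code was tested on simulated data and against bedtools 2.31.1 (0 of 24 counts differed). Wilson intervals treat peaks as independent. Bins run from the chromosome start to the last peak of any list.

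Named were all 5 genes, each site with an IgG-controlled peak, input-only sites called in both libraries, and the highest scoring other input-only site per locus and library. The loci, windows and lists were chosen with earlier results of these data known. Pairing peaks 1 to 1, ranking among both-control peaks, the comparisons with peaks of similar rank and the peaks beside the windows were added after the peaks had been seen. Positions relative to genes, motifs under peaks and a list of other surface genes, which were planned, were not analysed here, because no hg19 genome or annotation was used. Python 3.11.15, pandas 2.3.3, numpy 2.4.6, scipy 1.17.1 and matplotlib 3.10.9 were used.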

Additional observations from a re-analysis of the deposited data

How the results depend on the processing

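No paired analysis was possible because there was 1 c-Jun library per condition, and none could be left out. Depth is unknown and limits every statement of absence. Over the 5 loci, the peaks found only with TNFalpha numbered 2, those only without it 1, and shared peaks 1 in each library. IgG-controlled lists alone gave 4 peaks found only with TNFalpha, as the ICAM1 peak and 1 more CD274 peak entered. Input-controlled lists alone gave 5 only with and 3 only without TNFalpha. Restriction to IgG scores at or above the list median (the higher scoring 50%) kept 1 peak only with TNFalpha, at CD274, and 0 shared peaks without TNFalpha, because the NT5E peak lies below the median there. Windows shortened by 25% of their length on each side also gave 1 only with TNFalpha, as CD44 lost its peak. Windows extended by 100 kb gave 3 peaks only with TNFalpha, and 5 shared peaks with TNFalpha and 3 without it, mainly from the cluster before VCAM1. Hits limited to both-control peaks, 50% reciprocal overlap and joining within 500 bp changed none of these 4 counts. With equal list lengths the 4 totals had the same values but did not count the same peaks. The peaks found only with TNFalpha were then 2 at CD274 and 0 at CD44. CD274 had only 1 both-control site, so this setting also counted a peak outside that class. Its total is therefore no check of the both-control total.

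The NT5E site stood 78.6% from the top without and 26.7% with TNFalpha against IgG. The values were 36.8% and 17.0% against input. In comparisons added later they were 81.3% and 28.5% among both-control peaks and 87.9% and 42.1% among the 1 to 1 pairs. The site was nearer the top with TNFalpha in all 4. The comparisons added later rank the same IgG scores among subsets of the same peaks, so they are no separate check of the first. Densities over the 5 loci, 1.94 and 2.91 per Mb, became 3.88 and 5.83 per Mb in the input-controlled lists and 1.97 and 3.94 per Mb with windows extended by 100 kb.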
